A study of Mus musculus with 23 samples.

Results

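The genes described here encode collagens, laminins and integrins, together with 5 matrix proteins that bind them or each other (Dcn, Fn1, Nid1, Nid2 and Sparc). They were chosen by gene name among genes with a probe set of their own, and a gene was kept when its signal exceeded 100 on at least 3 of the 23 arrays. Of 81 genes with such a name 37 were kept, out of 13258 genes tested. These were 15 of 42 collagen chains, 6 of 10 laminin chains, 11 of 24 integrin subunits and all 5 other proteins. Just inside the limit lay Col4a5 and Nid1 with 3 arrays above 100, Col5a2 with 4, and Col4a4 and Lamb3 with 5. Just outside lay Col13a1 and Col27a1 with 2 arrays and Lama1 with 1. Itgb1bp1 and Itgb3bp, which encode proteins named for binding integrin tails and no integrin subunit, were left out.

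Laminins and type IV collagen form the networks of the basement membrane, the thin sheet of matrix that underlies the epiblast, and nidogens and heparan sulfate proteoglycans join these networks. Fibronectin and the fibrillar collagens make the looser matrix between cells, into which cells move when they leave the epiblast through the primitive streak. Integrins are paired receptors of an alpha and a beta chain that hold cells to this matrix. Itgb1 is the common partner of many alpha chains, among them Itga3 and Itga6, which bind laminin, and Itga5, which binds fibronectin.

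RNA of mouse epiblast-like cells, which are grown as a stand-in for the epiblast before gastrulation, was measured on Affymetrix mouse arrays. All groups share a male C57BL/6 background and the BV transgenes, a reporter of Blimp1, and each genotype, Wnt3 (+/+), here WT, or Wnt3 (-/-), here KO, is a single embryonic stem cell line. The stem cells had been kept with 2i and LIF, turned into epiblast-like cells with Activin A, bFGF and KSR on wells coated with human plasma fibronectin (0 h), and then cultured as floating aggregates with KSR and LIF. Aggregates received no cytokine, BMP4 at 500 ng/ml or WNT3A at 50 ng/ml, and KO aggregates also BMP4 and WNT3A together, and 1 array was made of each group at 12, 24 and 36 h, with no replicate. For 6 KO arrays, those with WNT3A alone and with both cytokines, the titles and the array names in the labels contradict each other. Groups follow the titles here, and these arrays are called KO titled WNT3A and KO titled BMP4+WNT3A. The signal of Id1, a known target of BMP signalling, goes against these titles. At 12, 24 and 36 h Id1 read 5480, 7591 and 9345 in KO titled WNT3A, near the 5557, 8192 and 10156 of KO with BMP4 and the 6339, 7383 and 9878 of WT with BMP4. In KO titled BMP4+WNT3A it read 186, 256 and 1323, near the 189, 350 and 2077 of WT with WNT3A, and without cytokine it never exceeded 304. Which cytokine a value in these 2 KO groups belongs to is therefore unsettled in all that follows.

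Array medians lay between 36.8 and 41.4, which gives the scale of a signal that is dim. The Wnt3 probe set read at most 27.9 on the KO arrays and up to 146 on the WT arrays, and since the labels do not say which part was deleted, this checks them only in part. All 8 epiblast markers looked at exceeded 100 on at least 3 arrays. Of 14 fibroblast markers besides Dcn 4 did so (Fap, Thy1, Prrx2 and Pdgfrb), Fap alone read at least 6339 on each array, and Lum, Postn, Twist2 and Ogn never exceeded 18.6. Summed signals of the 8 markers of streak mesoderm and endoderm stayed between 220 and 272 on the KO arrays without cytokine or with BMP4, and reached 4704 in WT without cytokine, 11619 in WT with BMP4, 6268 in WT with WNT3A, 4344 in KO titled WNT3A and 5557 in KO titled BMP4+WNT3A. In aggregates without cytokine the epiblast sum was never under 27892 in WT or 35940 in KO. Its lowest values were 14577 in WT with BMP4, 13493 in WT with WNT3A, 22623 in KO titled WNT3A and 16690 in KO titled BMP4+WNT3A, and KO with BMP4 stayed at or above 33507. The sum of 7 trophoblast markers reached 16196 in WT with BMP4, 17639 in WT with WNT3A, 11180 in KO titled WNT3A and 17611 in KO titled BMP4+WNT3A. In the other groups it never exceeded 5925. This sum rests mostly on the keratin genes Krt8 and Krt18, which reached 9476 and 7486. Of the other trophoblast markers Hand1 reached 1261, Tfap2c 729, Cdx2 484 and Ascl2 168, and Elf5 never exceeded 19.0. The sum therefore says little about these. The epiblast, streak and trophoblast sums move with the group and the time, and their part in the results below was not tested. In such bulk samples fewer cells of a type and less RNA per cell cannot be told apart.

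**Figure D1:**
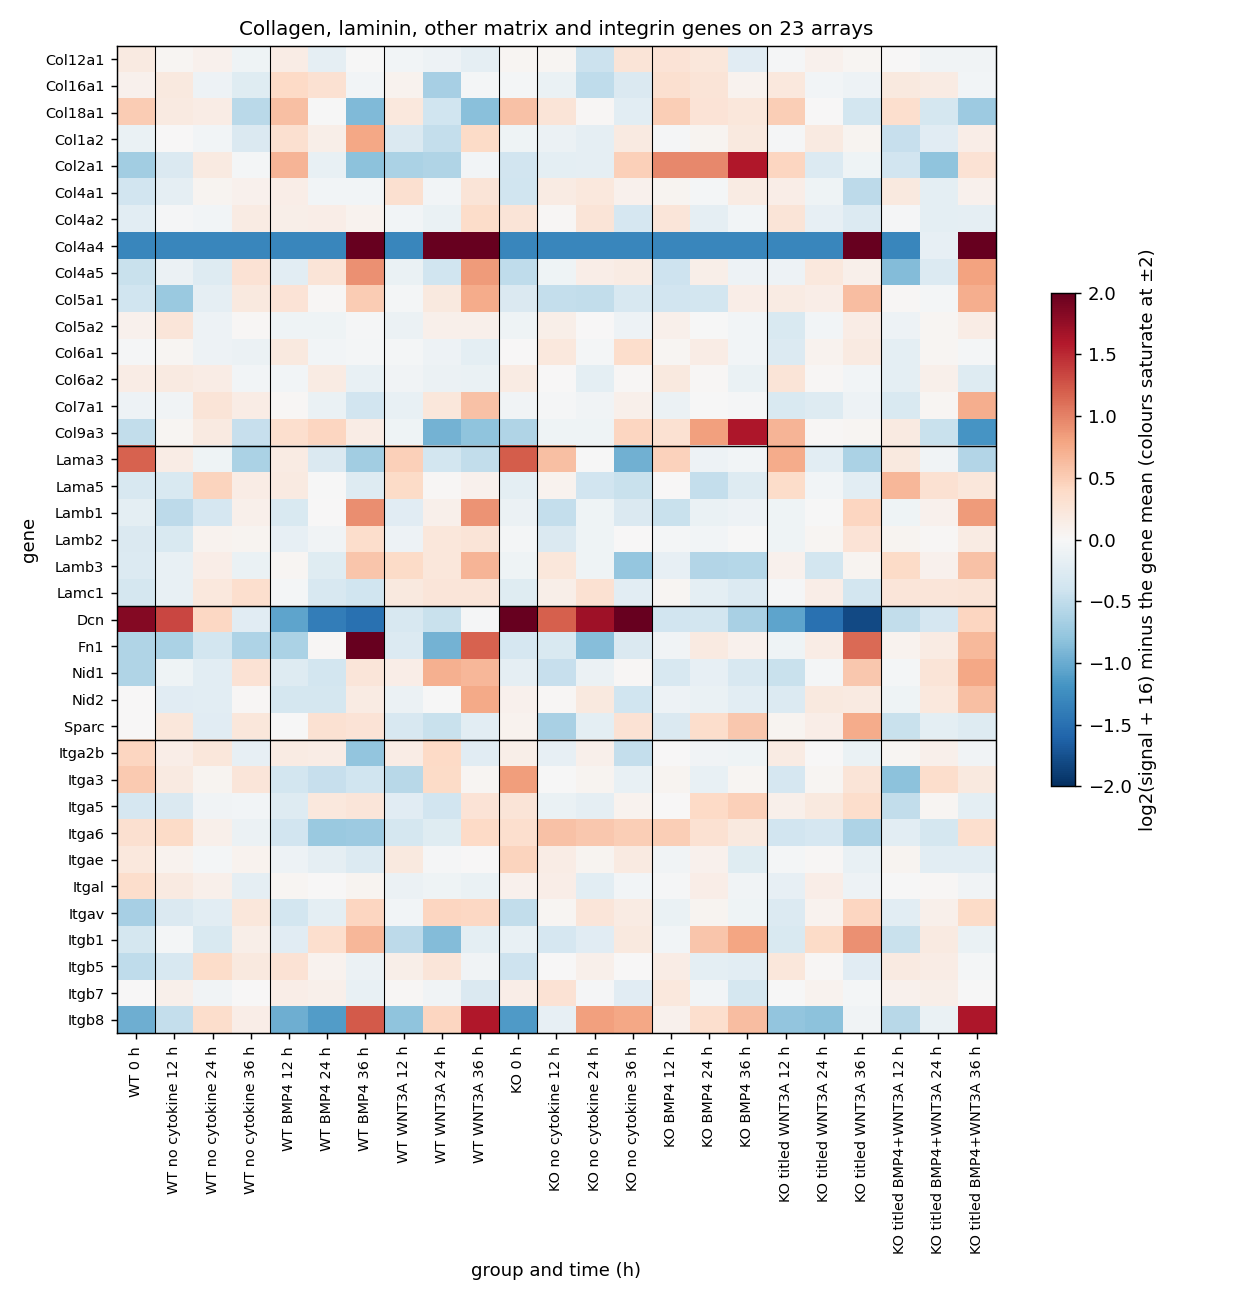
Colours give log2(signal + 16) of each of the 37 genes on each of the 23 arrays minus the mean of that gene, with genes in rows by class and arrays in columns by group and time. Most rows stay pale, Dcn is dark red at 0 h and in KO without cytokine and dark blue in WT with BMP4 and in KO titled WNT3A, and the Col4a4 row leaves its floor only on 6 arrays.

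Every class was represented at a clear signal in these cells. Of the basement membrane genes, Lama5, the laminin alpha chain of many epithelia, read between 1510 and 3327 over the 23 arrays, its partners Lamb1 between 1652 and 4837 and Lamc1 between 695 and 1314. Col4a1 and Col4a2, which form the common type IV collagen trimer, read from 211 to 419 and from 234 to 446, Nid2 from 1176 to 2916, and Col18a1, the proteoglycan that carries endostatin, from 1820 to 4673. Fn1 ranged from 917 to 8780 and Sparc, a collagen-binding matricellular protein, from 936 to 2817. Among the integrins Itgb5 read from 1758 to 3421, Itga6 from 1261 to 3327, Itga3 from 388 to 1136 and Itgb1 from 191 to 744. Levels of different genes come from different probes and are not ranked against each other here.

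Cytokines changed few of these genes on average over the 3 times. A difference below is the mean over 12, 24 and 36 h on the log2(signal + 16) scale after quantile normalization, with the standard error (SE) of a model fitted with limma to the 21 arrays after 0 h, and a gene is called at a Benjamini-Hochberg adjusted p under 0.05 over all 13258 genes (n = 3 arrays per group, 1 per time). The times stand in for replicates, so the p-values measure spread over time within 1 series of cultures. BMP4 in WT called 2 of the 37 genes, 5.41%, beside 3.47% of all genes. WNT3A in WT called none, beside 0.543% of all genes. With no adjustment 8 of the 37 had a limma p under 0.05 there, 21.6%, beside 14.0% of all genes. BMP4 in KO called 1, beside 0.573%. KO titled WNT3A against KO without cytokine called 3, 8.11%, beside 9.56% of all genes, and KO titled BMP4+WNT3A called 3, beside 6.83%. These 3 KO comparisons share the arrays without cytokine. The called shares thus lay near those of all genes. Dcn is in each of these counts above 0 and is the only call for BMP4 in KO. It passed the level limit only through arrays without cytokine, so its calls are no support for the counts. The others called were Itga6 for BMP4 in WT, Col5a1 and Itga6 for KO titled WNT3A, and Col5a1 and Lama5 for KO titled BMP4+WNT3A.

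Between the genotypes without cytokine no member was called with limma, beside 0.113% of all genes. With no adjustment 2 of 37 had p under 0.05, 5.41%, beside 12.3% of all genes. With BMP4 in both lines 2 members were called, both higher in KO, beside 7.28% of all genes. The difference between KO and WT in their BMP4 responses was called for no member and for 0 percent of all genes, with 1 member and 783 genes at an unadjusted limma p under 0.05. Genotype cannot be told apart from the line that carries it. The median difference of the 37 genes lay between -0.03 and 0.07 in these 8 comparisons, and that of all genes between -0.02 and 0.00.

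Dcn encodes decorin, a small proteoglycan that binds collagen fibrils and growth factors such as TGF-beta. It exceeded 100 on 6 arrays, none with a cytokine, so it passed the level limit only through arrays of the groups in which it is high. That limit favours a lower signal with a cytokine. The differences below therefore describe Dcn alone and are no support for a response of these genes as a set. At 0 h its signal was 223 in WT and 355 in KO. In WT without cytokine it read 160 at 12 h, 82.7 at 24 h and 49.2 at 36 h, and with BMP4 it read 19.6, 12.7 and 10.7. Each BMP4 array thus lay below each array without cytokine, and also below the median of its array. The difference was -1.82 ± 0.34 log2 (SE, adjusted p = 0.00666), 3.53-fold lower. In KO without cytokine Dcn read 142, 236 and 322 and with BMP4 41.4, 43.4 and 32.2, which again did not overlap. That difference was -2.14 ± 0.34 (SE, adjusted p = 0.00680), 4.41-fold lower, and the call was lost without the KO array without cytokine at 24 h (-2.09, adjusted p = 0.0591).

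KO titled WNT3A had the lowest Dcn signals, with 19.4 at 12 h, 10.1 at 24 h and 5.21 at 36 h. This was 8.77-fold below KO without cytokine (-3.13 ± 0.34, SE, adjusted p = 4.58e-05), the one cytokine difference of a member that also passed without the 24 h arrays (adjusted p = 0.0412). In KO titled BMP4+WNT3A Dcn read 36.0, 44.3 and 91.1, a difference of -1.81 ± 0.34 (SE, adjusted p = 0.00400). WT with WNT3A read 42.5, 37.5 and 60.5, lower than without cytokine at 12 and 24 h and higher at 36 h, and the mean difference of -0.77 ± 0.34 missed the threshold (SE, adjusted p = 0.316). Without the 36 h arrays Dcn and Itga6 were called in that comparison. Because most of these signals are dim, the size depends on the offset added before the logarithm. With an offset of 1 the difference of BMP4 in WT was -2.59 and with 64 it was -1.01, and in KO titled WNT3A it was -4.29 and -1.93, with all these calls kept.

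The line without Wnt3 had more Dcn signal at 24 and 36 h without cytokine, 236 and 322 against 82.7 and 49.2, but 142 against 160 at 12 h. The mean difference of 1.17 ± 0.34 missed the threshold (SE, adjusted p = 0.181). With BMP4 all KO arrays, 32.2 to 43.4, lay above all WT arrays, 10.7 to 19.6, and the difference of 0.85 ± 0.34 missed it as well (SE, adjusted p = 0.148). Dcn also serves as a fibroblast marker. Of 7 such markers tested it was the only one called lower in a cytokine comparison, Pdgfrb was called higher in KO titled BMP4+WNT3A (2.61 ± 0.58, SE, adjusted p = 0.0120), and Fap stayed between 6339 and 8481 on all arrays. The sum of the 14 others lay between 6985 and 9174, but Fap makes up most of it, so it says little about the rest. Thy1 ranged from 41.9 to 437 and Pdgfrb from 4.82 to 584. A second probe set named for Dcn read between 4.56 and 24.4 on all arrays and was too dim to be tested.

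**Figure D2:**
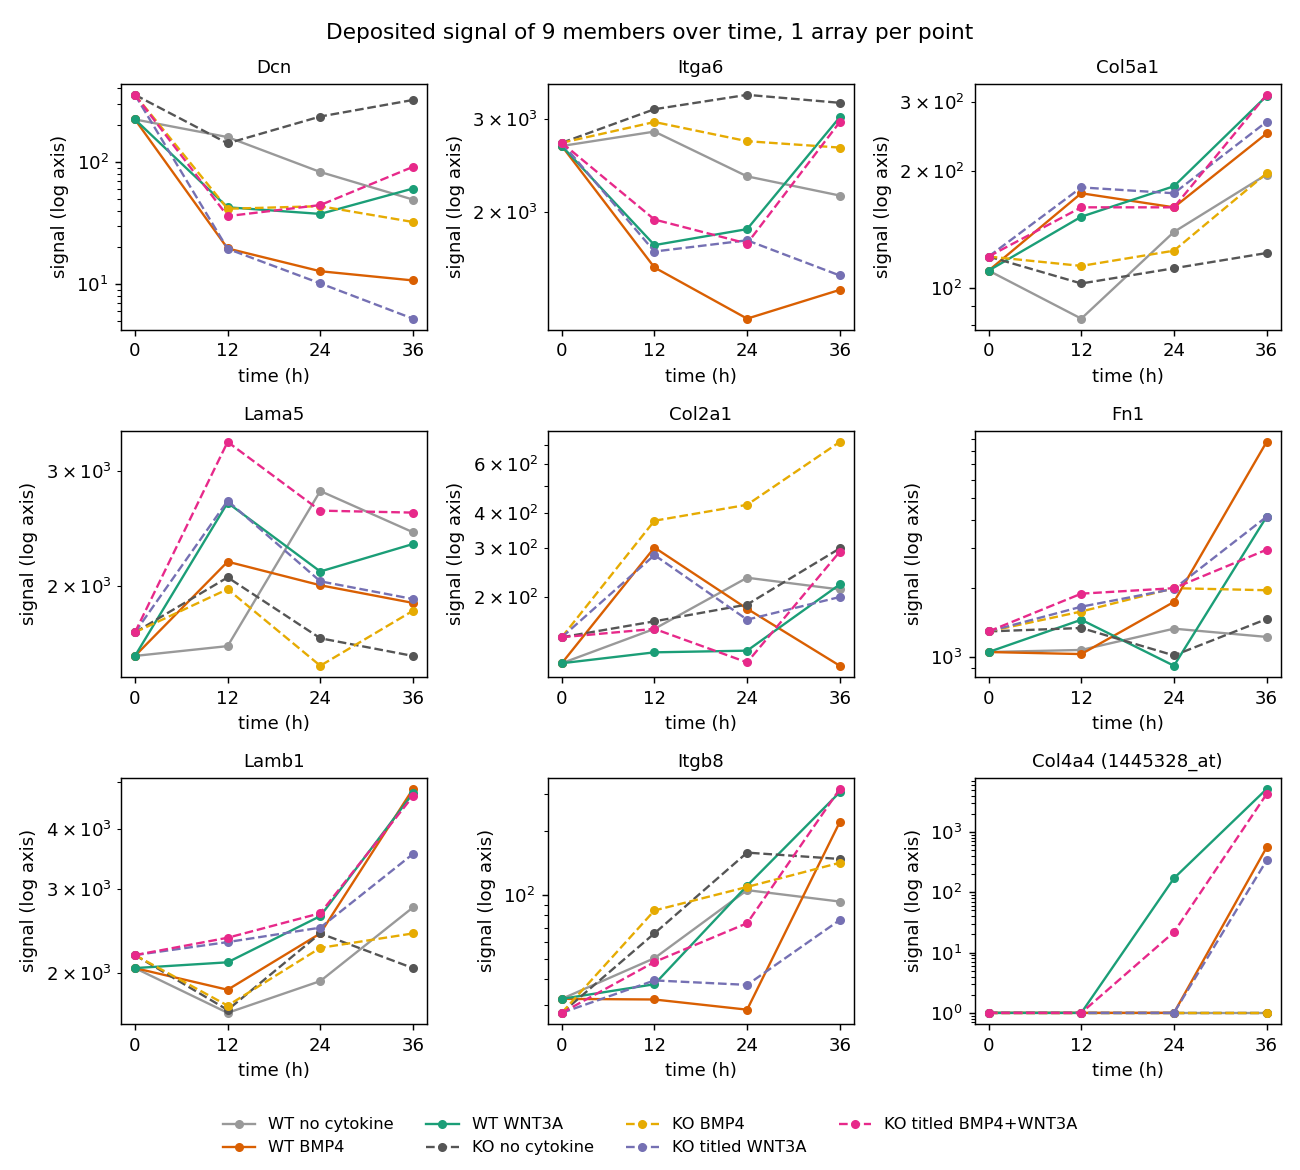
Deposited signal (log axis) against time in hours for 9 genes, 1 array per point, with solid lines for WT, dashed lines for KO and the 0 h array of each line as the common start of its groups. Within each line Dcn is lower with each cytokine than without at 12 and 24 h. At 36 h it reads 49.2 in WT without cytokine and 60.5 in WT with WNT3A. Fn1, Lamb1 and the Col4a4 probe set separate the groups mainly at 36 h, when Fn1 reaches 8780 in WT with BMP4. Itgb8 differs between KO without cytokine and KO titled WNT3A already at 24 h.

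Among the integrins Itga6, the laminin-binding alpha chain, was the only subunit called for a cytokine or for genotype. In WT without cytokine it read 2837, 2336 and 2150 at 12, 24 and 36 h, and with BMP4 1574, 1261 and 1428. The groups did not overlap, and the difference was -0.74 ± 0.19 (SE, adjusted p = 0.0425), 1.67-fold lower. In KO without cytokine Itga6 read 3126, 3327 and 3214, and in KO titled WNT3A 1687, 1771 and 1520. That difference was -0.98 ± 0.19 (SE, adjusted p = 0.00387), 1.98-fold lower, with no overlap. BMP4 alone left Itga6 at 2957, 2721 and 2647 in KO (-0.20 ± 0.19, SE, adjusted p = 0.800). KO with BMP4 lay above WT with BMP4 on each array, by 0.95 ± 0.19 (SE, adjusted p = 0.00624), 1.94-fold. The 2 BMP4 responses themselves differed by 0.54 ± 0.27 (SE), with an adjusted p of 0.851, so the test of that difference was not passed.

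The groups titled or labelled with WNT3A differed in Itga6 at 36 h. WT with WNT3A read 1734 and 1859 at 12 and 24 h and 3019 at 36 h, above the 2150 without cytokine. KO titled BMP4+WNT3A read 1938 and 1746 and then 2957, below the 3214 without cytokine, and its mean difference of -0.61 ± 0.19 missed the threshold (SE, adjusted p = 0.0694). KO titled WNT3A stayed low, at 1520. The BMP4 call in WT is the weakest of these: it passed in 19 of 38 alternative fits. It was lost without any 1 of 11 arrays (adjusted p between 0.0502 and 0.175): WT without cytokine at 12 or 24 h, WT with BMP4 at 24 or 36 h, WT with WNT3A at 24 h, and KO without cytokine, KO with BMP4 or KO titled WNT3A at 12 or 24 h. The genotype call with BMP4 passed in 37 of 38.

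The other laminin receptor chain, Itga3, read 724, 699 and 867 in WT without cytokine and 468, 471 and 564 with BMP4. These did not overlap, but the difference of -0.57 ± 0.22 missed the threshold (SE, adjusted p = 0.189). Itgb1 and the fibronectin receptor chain Itga5 were called for no cytokine. Itgb8, a partner of Itgav that activates latent TGF-beta, read 65.8, 159 and 148 in KO without cytokine and 39.4, 37.5 and 76.1 in KO titled WNT3A (-1.04 ± 0.40, SE, adjusted p = 0.125), and was called there without the 36 h arrays. Of the others, Itgb5 (1758 to 3421), Itga2b (249 to 553), Itgav (93.7 to 247), Itgal (111 to 154), Itgb7 (112 to 159) and Itgae (78.2 to 126) were called for neither cytokine nor genotype.

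Col5a1 encodes the type V collagen chain that starts collagen fibrils, and it was higher in both KO groups titled with WNT3A. It read 102, 112 and 123 in KO without cytokine, 181, 175 and 267 in KO titled WNT3A, and 161, 161 and 313 in KO titled BMP4+WNT3A. Neither group overlapped with the arrays without cytokine, and the differences were 0.74 ± 0.14 (SE, adjusted p = 0.00367), 1.67-fold, and 0.66 ± 0.14 (SE, adjusted p = 0.00984), 1.59-fold. In WT it read 83.3, 139 and 195 without cytokine, 175, 161 and 249 with BMP4 and 152, 182 and 311 with WNT3A. All 3 times were higher with either cytokine, but the WT groups overlapped, and 0.52 ± 0.14 for BMP4 (SE, adjusted p = 0.0569) and 0.54 ± 0.14 for WNT3A (SE, adjusted p = 0.111) missed the threshold. In KO with BMP4 it read 114, 125 and 197 (0.23 ± 0.14, SE, adjusted p = 0.642). The call in KO titled BMP4+WNT3A was lost without the 36 h array of that group (0.58, adjusted p = 0.0671) or of KO without cytokine (0.53, adjusted p = 0.0685). Another probe set of Col5a1 gave 0.45 and 0.36 and did not pass in either group.

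Col11a1, whose chain assembles with that of Col5a1, lay below the level limit and is no member, with signals between 12.3 and 78.8. It was called higher in WT with BMP4 (0.57, adjusted p = 0.0335), in KO titled WNT3A (0.68, adjusted p = 0.00546) and in KO titled BMP4+WNT3A (0.61, adjusted p = 0.0142). Of the 44 genes below the limit 21 were bright enough to be tested. They were called in 1 case for BMP4 in WT, 2 for each KO group titled with WNT3A and 1 for genotype with BMP4, which is 4.76%, 9.52% and 4.76% of them, beside 3.47% of all genes for BMP4 in WT, 9.56% and 6.83% for the KO groups titled WNT3A and BMP4+WNT3A, and 7.28% for genotype. Besides Col11a1, Lama4 was called higher in KO titled WNT3A (0.75, adjusted p = 0.0274), and Itga1, a collagen receptor chain, higher in KO titled BMP4+WNT3A (0.89, adjusted p = 0.0291) and lower in KO than in WT with BMP4 (-0.98, adjusted p = 0.0168). The fibrillar chain Col3a1 stayed between 36.8 and 72.0.

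Col2a1, the fibrillar collagen of cartilage and of early notochord and neural tissue, was the one collagen called for genotype. With BMP4 it read 300, 181 and 113 at 12, 24 and 36 h in WT and 375, 428 and 719 in KO. The KO arrays all lay above the WT arrays, by 1.26 ± 0.33 (SE, adjusted p = 0.0288), 2.40-fold. Without cytokine it read 153, 234 and 212 in WT and 163, 187 and 298 in KO, and neither BMP4 response was called (1.14 ± 0.33 in KO, SE, adjusted p = 0.163). The responses differed by 1.18 ± 0.47 (SE, adjusted p = 0.779), which missed the threshold. The genotype call was lost without any 1 of 4 arrays, WT or KO with BMP4 at 24 or 36 h (adjusted p between 0.0652 and 0.148), and without the WT array at 36 h the difference was 0.75.

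**Figure D3:**
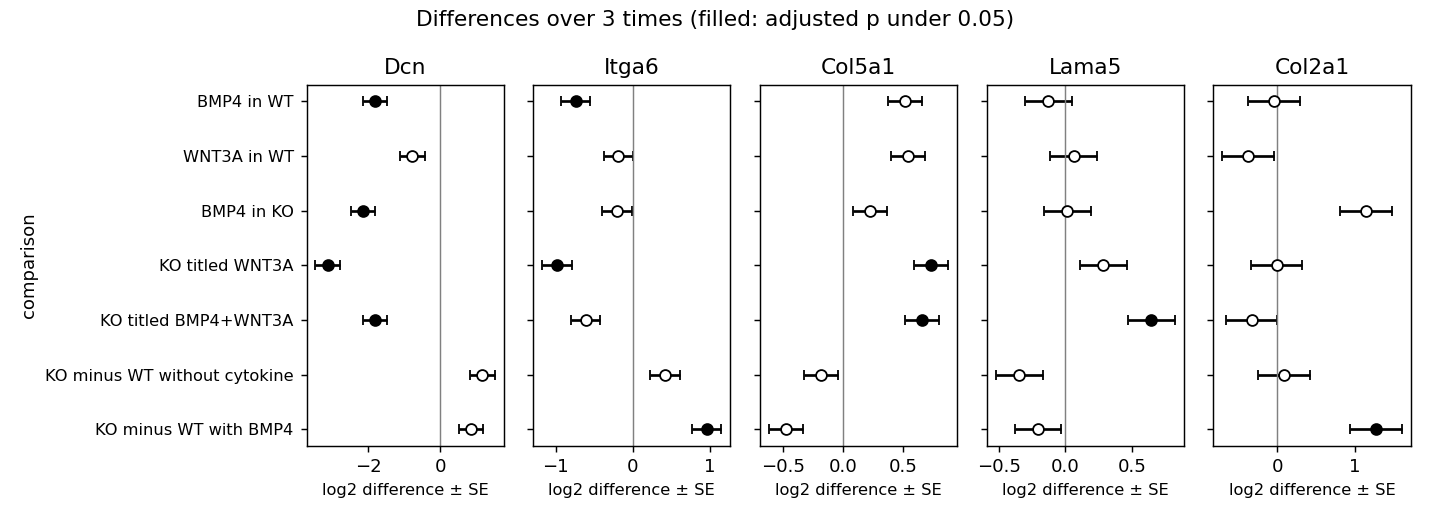
Log2 differences over 3 times with their SE for the 5 genes called in a cytokine or genotype comparison, 1 panel per gene with its own axis and 1 line per comparison. Filled points have an adjusted p under 0.05: Dcn lies below 0 in each cytokine comparison, from -0.77 to -3.13, and is filled in 4 of 5.

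Col9a3, a chain of the type IX collagen that coats type II fibrils, read 133 at 12 h and 419 at 36 h in KO with BMP4, against 97.0 and 155 without cytokine (0.83 ± 0.34, SE, adjusted p = 0.382). In KO titled BMP4+WNT3A it went from 128 at 12 h to 42.5 at 36 h. Col16a1 read 163, 137 and 158 in KO without cytokine and 229, 246 and 229 with BMP4, without overlap (0.52 ± 0.14, SE, adjusted p = 0.132). Col1a2, a chain of type I collagen, read 147, 151 and 132 in WT without cytokine and 177, 169 and 300 with BMP4, without overlap (0.51 ± 0.17, SE, adjusted p = 0.129). None of these passed. Col4a1, Col4a2, Col6a1 (77.2 to 125), Col6a2 (119 to 170), Col12a1 (69.6 to 122), Col5a2 (69.6 to 109) and Col7a1 (179.8 to 443) were called for neither cytokine nor genotype.

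Lama5 was the only laminin chain called for a cytokine. It read 2062, 1663 and 1563 in KO without cytokine and 3327, 2610 and 2592 in KO titled BMP4+WNT3A, without overlap. The difference was 0.65 ± 0.18 (SE, adjusted p = 0.0366), 1.57-fold. It was lost without any 1 of 5 arrays, each array of KO titled BMP4+WNT3A or the KO arrays without cytokine at 24 or 36 h (adjusted p between 0.0981 and 0.137), and a second Lama5 probe set gave 0.42 and did not pass. In WT without cytokine Lama5 read 1618 at 12 h and 2798 and 2419 later, and no WT group stood apart from it. Without that 12 h array Lama5 was called for BMP4 in WT and for genotype without cytokine. Lamb3, of epithelial laminins, ranged from 40.5 to 151, exceeded 100 on 5 arrays that all had a cytokine, and was called in no comparison. Lamb1 had 0.57 ± 0.18 in KO titled BMP4+WNT3A (SE, adjusted p = 0.0662).

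The promoters of Col5a1 and Lama5, the members called higher in KO titled BMP4+WNT3A, and of Lamb1, which rises with time below, show what these genes have before their starts. The table of RefSeq promoters (GRCm38.p6) holds 25 of the 37 members. The 250 bases before the annotated start are given 5′ to 3′ on the strand of the gene, with GC boxes (GGGCGG on either strand), the site of Sp1-type factors, in capitals.
Col5a1, chr2:27886175-27886424, plus strand: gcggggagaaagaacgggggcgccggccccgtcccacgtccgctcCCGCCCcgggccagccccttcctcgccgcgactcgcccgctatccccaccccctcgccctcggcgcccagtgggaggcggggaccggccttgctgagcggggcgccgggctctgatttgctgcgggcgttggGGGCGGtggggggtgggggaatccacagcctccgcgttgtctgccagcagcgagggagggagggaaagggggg
Lama5, chr2:180225860-180226109, minus strand: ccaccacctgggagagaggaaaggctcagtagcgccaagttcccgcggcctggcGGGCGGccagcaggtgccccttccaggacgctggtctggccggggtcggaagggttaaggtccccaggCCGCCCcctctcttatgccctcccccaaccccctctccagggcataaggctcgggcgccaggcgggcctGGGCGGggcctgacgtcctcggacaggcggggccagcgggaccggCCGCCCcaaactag
Lamb1, chr12:31265043-31265292, plus strand: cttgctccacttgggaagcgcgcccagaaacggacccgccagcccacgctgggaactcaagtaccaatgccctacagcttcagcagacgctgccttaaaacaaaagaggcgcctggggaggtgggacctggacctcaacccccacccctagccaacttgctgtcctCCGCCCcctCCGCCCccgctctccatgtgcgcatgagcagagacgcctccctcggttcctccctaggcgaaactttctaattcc

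These stretches are rich in G and C, with 76.4% in Col5a1, 72.4% in Lama5 and 62.0% in Lamb1 beside a median of 52.4% over 32851 promoter windows of the same length. GC boxes number 2 in Col5a1, 4 in Lama5 and 2 in Lamb1, and 32.7% of all windows hold one. The GC-rich SMAD motif GGCGCC, which reads the same on both strands and can share bases with a GC box, is present 3 times in Col5a1 and once in each of the others, against 9.59% of all windows with at least 1. The TCF/LEF core CTTTGA on either strand is in none of these windows and in 13.8% of all. Among the 25 members listed there, 15 hold a GC box, 7 the SMAD motif and 2 the TCF/LEF core in at least 1 window of the gene. The percentages above are shares of single windows, so these counts cannot be set against them. A match describes the letters in this window and is no evidence of binding.

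Fn1, Nid1, Nid2 and Sparc were called for no cytokine, but Fn1 reached high signals late. In WT with BMP4 Fn1 read 1031 at 12 h, 1746 at 24 h and 8780 at 36 h, against 1075, 1333 and 1226 without cytokine. WT with WNT3A read 1458, 917 and 4124, KO titled WNT3A 1663, 1992 and 4124, and KO titled BMP4+WNT3A 1898, 2006 and 2957. KO without cytokine read 1342, 1017 and 1468 and KO with BMP4 1585, 2006 and 1965. The mean differences, 1.12 ± 0.45 for BMP4 in WT (SE, adjusted p = 0.204) and 0.88 ± 0.45 for KO titled WNT3A (SE, adjusted p = 0.253), missed the threshold. The model has no term for a response that differs between times. In a second model with a straight course over time for each group, chosen after the data were seen, the slope of Fn1 in WT was steeper with BMP4 than without by 2.95 ± 0.86 log2 per 24 h (SE, adjusted p = 0.282).

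No member passed in that slope model. The limma fit called 0.0453% of all genes for BMP4 in WT, 0.0302% for WNT3A in WT, 0.0151% for KO titled WNT3A and 0% for KO titled BMP4+WNT3A. At an unadjusted p under 0.05 stood 9, 6, 4 and 9 of the 37 members, 24.3%, 16.2%, 10.8% and 24.3%, beside 8.73%, 8.07%, 5.67% and 9.14% of all genes. For BMP4 in WT these include Col4a4 and Dcn, and for WNT3A in WT Col4a4, Dcn and Itgb8. For KO titled WNT3A they include Dcn, and for KO titled BMP4+WNT3A Col4a4, Col4a5 and Lamb3. The level limit admitted each of these genes only through late arrays, arrays with a cytokine or arrays without one. They are no support for these shares. Dcn had the smallest p, with slopes that differed by 1.87 ± 0.34 for WNT3A in WT (SE, adjusted p = 0.101) and by -1.72 ± 0.34 for KO titled WNT3A (SE, adjusted p = 0.263), in opposite directions. Itga6 followed for WNT3A in WT with 1.24 ± 0.31 (SE, adjusted p = 0.225).

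More of these genes were called for time in culture than for any cytokine, but the 2 kinds of count cannot be compared. The time comparison has 7 arrays at each time and averages over groups of which most had a cytokine. A cytokine comparison has 3 arrays per group. From 12 to 36 h, over all 7 groups, 17 of the 37 were called, 45.9%, beside 38.8% of all genes. Of these 12 were higher at 36 h, 32.4% beside 17.9% of all genes, and 5 lower, beside 20.8% of all genes. The split depends on the scaling: with values as deposited it was 16 higher and 2 lower, and with median centring 16 and 3, and the higher share of all called genes moved from 46.3% to 74.9% and 64.2%. The median of all genes was -0.02 with quantile normalization, 0.09 as deposited and 0.04 with median centring. Col4a4, Col4a5, Itgb8 and Nid1 exceeded 100 only at 24 and 36 h, and Lama3 only at 0 and 12 h, so the level limit admitted them through the times at which they are high and their changes are no support for the count. Of the other 32 members 12 were called, 37.5% beside 38.8% of all genes, with 8 higher and 4 lower.

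Among basement membrane genes Lamb1 rose in 7 of 7 groups, by 0.71 ± 0.12 on average (SE, adjusted p = 0.000189), and of its other probe sets one gave 0.82 (adjusted p = 0.000316) and a dimmer one 0.47, which did not pass (adjusted p = 0.371). Its signal at 36 h was 4837 in WT with BMP4, 4738 in WT with WNT3A, 4673 in KO titled BMP4+WNT3A and 3541 in KO titled WNT3A, against 2740, 2048 and 2419 in WT without cytokine, KO without cytokine and KO with BMP4. The groups at 12 h lay between 1652 and 2369. Lamb2 rose by 0.29 ± 0.07 (SE, adjusted p = 0.00489) and Nid1, which links laminin to type IV collagen, by 0.53 ± 0.11 (SE, adjusted p = 0.00138), each in 7 of 7 groups. The level limit admitted Nid1 only through arrays of 24 and 36 h, the times at which it is high. Sparc rose in 6 of 7 groups, by 0.43 ± 0.12 (SE, adjusted p = 0.00760). Of its other probe sets one that read 99.0 to 488 gave 0.35 and did not pass (adjusted p = 0.0737), and one that read 44.3 to 75.6 was called in the other direction (-0.20, adjusted p = 0.0343). Lama3, a chain of epithelial laminins, and Col18a1 fell in 7 of 7 groups.

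For Lama3 the fall was -0.98 ± 0.12 (SE, adjusted p = 1.1e-05). It read 88.6 to 149 in the 7 groups at 12 h and 35.0 to 82.7 at 36 h, with no overlap, and 189 in WT and 193 in KO at 0 h. Its 6 arrays above 100 were all from 0 or 12 h, so it passed the level limit only through the times at which it is high. Col18a1 fell by 0.84 ± 0.11 (SE, adjusted p = 2.03e-05), from 3541 to 4545 at 12 h to 1820 to 3769 at 36 h. Its lowest values at 36 h, 1820, 1859 and 2006, were those of WT with BMP4, WT with WNT3A and KO titled BMP4+WNT3A. Lama5, Lamc1, Col4a1, Col4a2 and Nid2 were not called for time.

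**Figure D4:**
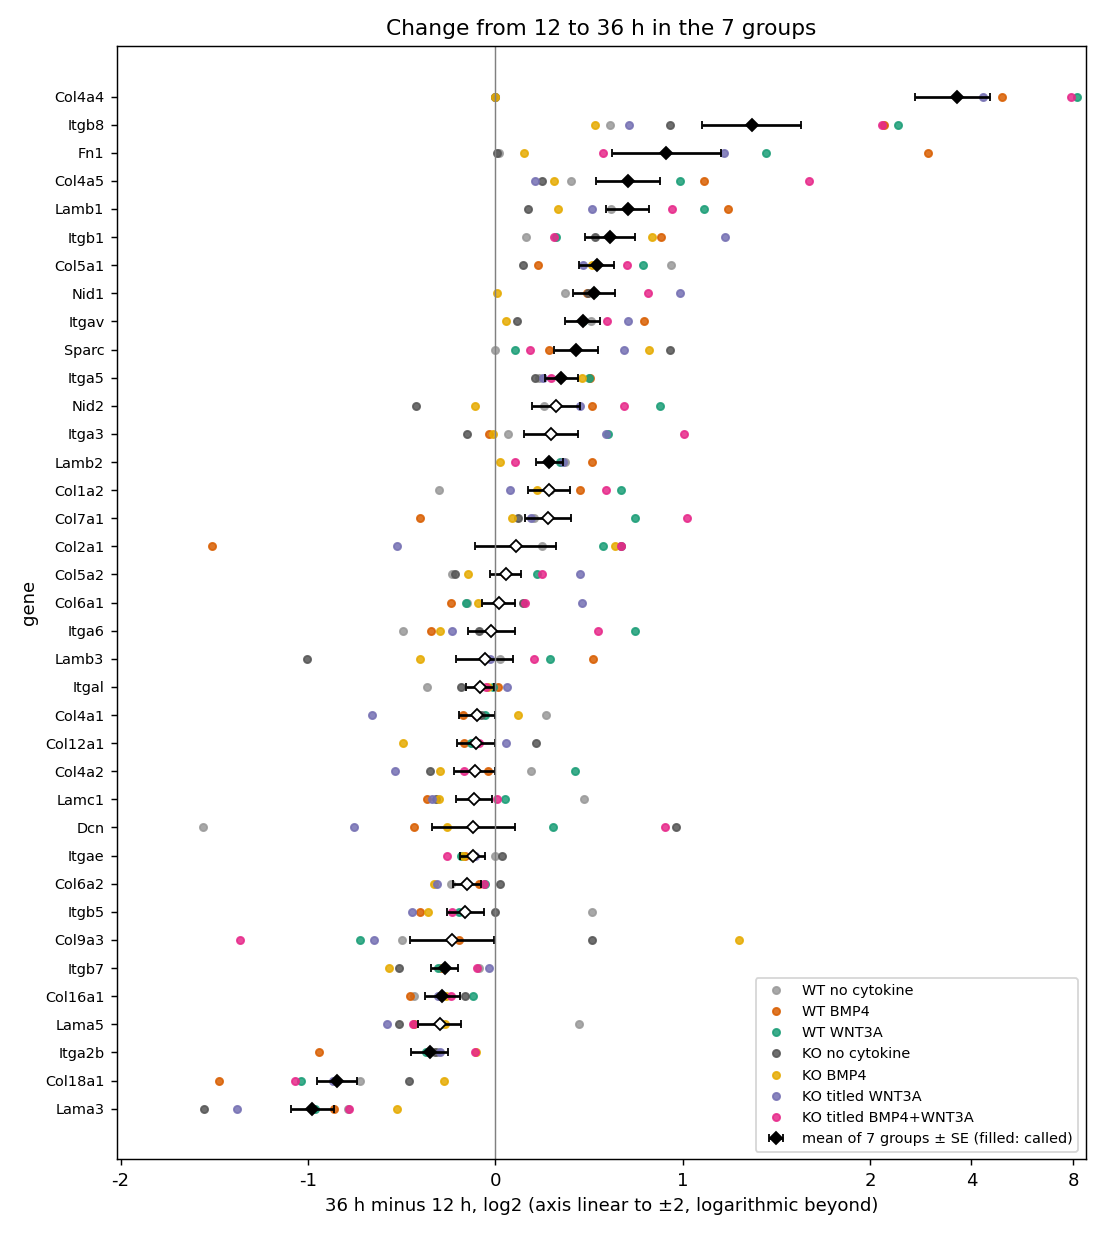
Change from 12 to 36 h on the log2 scale for each of the 37 genes, with coloured points for the 7 groups and a diamond for their mean with its SE, filled where called. The axis is linear between -2 and 2 and logarithmic outside. The points of Lama3 all lie below 0 and those of Lamb1, Itgb1 and Col5a1 all above it, whereas Col4a4 stands at 0 in 3 groups and far to the right in 4.

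Of the fibril genes Col5a1 rose with time in 7 of 7 groups, by 0.54 ± 0.09 (SE, adjusted p = 0.000287). Col11a1, below the level limit, was also called higher at 36 h (0.76, adjusted p = 1.36e-05), as were Col13a1, Col23a1, Itga8 and Lama4 among the genes below it. Col16a1 fell by 0.28 ± 0.09 (SE, adjusted p = 0.0244), a call lost with values as deposited and without any 1 of 5 arrays (adjusted p between 0.0501 and 0.0640): WT without cytokine at 12 or 36 h, WT with WNT3A at 12 h, WT with BMP4 at 36 h or KO titled BMP4+WNT3A at 36 h. Fn1 rose in 7 of 7 groups, by 0.91 ± 0.29 (SE, adjusted p = 0.0208), with 0.02 and 0.01 without cytokine in WT and KO and 2.97 in WT with BMP4. That call was lost without WT with BMP4 at 12 h (0.69, adjusted p = 0.0597) or WT with WNT3A at 36 h (0.77, adjusted p = 0.0573). A second Fn1 probe set read 15.5 to 45.6 and was too dim to be tested.

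The integrin chains Itgb1, Itgav, Itga5 and Itgb8 rose in 7 of 7 groups. Itgb1 pairs with Itga5 or Itgav in receptors of fibronectin. Itgb1 rose by 0.61 ± 0.13 (SE, adjusted p = 0.00185), from 247 to 322 at 12 h to 352 to 744 at 36 h, with no overlap. Itgav, part of receptors of vitronectin and fibronectin, rose by 0.47 ± 0.09 (SE, adjusted p = 0.000945), from 113 to 155 at 12 h to 170 to 247, also with no overlap. Itga5 rose by 0.35 ± 0.09 (SE, adjusted p = 0.00490). The mean over all probe sets of a gene, most of them dim, left Itgav at 0.08 and Itga5 at 0.08 and ended both calls. Itgb8, which passed the level limit through its 24 and 36 h arrays alone, rose by 1.37 ± 0.26 (SE, adjusted p = 0.000718) and at 36 h read 307 in WT with WNT3A, 317 in KO titled BMP4+WNT3A and 221 in WT with BMP4, against 76.1 to 148 in the other 4 groups. Itga2b, the platelet integrin chain, fell by 0.35 ± 0.10 (SE, adjusted p = 0.00905) and Itgb7, of lymphocyte integrins, by 0.27 ± 0.07 (SE, adjusted p = 0.00713), and both calls were lost with values as deposited (-0.16 and -0.14).

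The Col4a4 probe set gave the largest change with time of any member, 3.63 ± 0.91 (SE, adjusted p = 0.00507), and it rested on 4 of 7 groups. Because most values sit at the floor of 1 this size is no fold: with an offset of 1 it was 5.38, with 64 it was 2.57, and as the mean of its probe sets 1.20, each called. Without the 6 KO arrays of unsettled labels the call was lost (2.63, adjusted p = 0.0782). It was listed at the floor of 1 on 17 of the 23 arrays. It read 556 in WT with BMP4 at 36 h, 171 and 5185 in WT with WNT3A at 24 and 36 h, 338 in KO titled WNT3A at 36 h, and 21.9 and 4270 in KO titled BMP4+WNT3A at 24 and 36 h. Neither group without cytokine nor KO with BMP4 left the floor. Col4a4 encodes a type IV collagen chain of kidney and other specialised basement membranes. Its other 2 probe sets never exceeded 13.8, so the probe sets of Col4a4 disagree and the signal cannot be assigned to the known transcript with these data. Col4a5, a chain that assembles with that of Col4a4, rose by 0.71 ± 0.17 (SE, adjusted p = 0.00397), from 21.4 to 47.8 at 12 h to 50.2 to 118 at 36 h. It was highest in WT with BMP4, WT with WNT3A and KO titled BMP4+WNT3A, at 115 to 118. No other array of Col4a5 exceeded 100, so the level limit admitted it only through the time at which it is high.

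The step from flat culture on fibronectin at 0 h to aggregates at 12 h without cytokine can be read from 1 array on each side in each line, with no test. No member moved by more than 1 log2 in the same direction in both lines, beside 0.302% of all genes up and 0.4% down. Lama3 changed by -1.02 in WT and -0.61 in KO, Dcn by -0.49 and -1.29, Itga3 by -0.35 and -0.84, and Itgb8 by 0.51 and 0.97. Of the 37 members 15 were higher and 11 lower in both lines, 40.5% and 29.7%, beside 34.0% and 32.8% of all genes. Median changes were 0.05 in WT and 0.00 in KO, beside 0.00 and 0.01 over all genes.

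Genes that make, cut or bind this matrix were followed in 4 lists. The all-gene shares given above apply to each list: 3.47% for BMP4 in WT, 0.543% for WNT3A in WT, 0.573% for BMP4 in KO, 9.56% for KO titled WNT3A, 6.83% for KO titled BMP4+WNT3A, 7.28% for genotype with BMP4 and 38.8% for time, where the split into higher and lower moves with the scaling. For collagen synthesis and crosslinking 25 genes were tested, of which KO titled BMP4+WNT3A called Loxl4, a lysyl oxidase, higher (1.49 ± 0.41, SE, adjusted p = 0.0397) and Loxl1 lower (-0.51 ± 0.13, SE, adjusted p = 0.0227). KO titled WNT3A called Pcolce, an enhancer of procollagen cleavage, higher (0.48 ± 0.14, SE, adjusted p = 0.0474), and KO exceeded WT with BMP4 in Loxl1 (0.65 ± 0.13, SE, adjusted p = 0.00505). KO titled BMP4+WNT3A thus called 8% of the list, and the other 2 comparisons 4% each. With time 7 rose and 3 fell, 40% beside 38.8% of all genes, among them P4ha1, a subunit of prolyl hydroxylase, by 0.91 ± 0.12 (SE, adjusted p = 2.13e-05) and the collagen IV crosslinking peroxidasin Pxdn by 0.69 ± 0.10 (SE, adjusted p = 8.59e-05). The other comparisons called none of this list.

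Of 30 other matrix genes WT with BMP4 called 2 higher, WT with WNT3A 1, KO titled WNT3A 5, and KO titled BMP4+WNT3A 4 higher and 1 lower, and BMP4 in KO called none. These are 6.67%, 3.33%, 16.7% and 16.7% of the list, beside 3.47%, 0.543%, 9.56% and 6.83% of all genes. Efemp1, an elastic fibre protein of the fibulin family, was higher in WT with BMP4 (1.82 ± 0.35, SE, adjusted p = 0.00822), in KO titled WNT3A (2.64 ± 0.35, SE, adjusted p = 0.000209) and in KO titled BMP4+WNT3A (2.37 ± 0.35, SE, adjusted p = 0.000745). It was lower in KO than in WT with BMP4, by -3.14 ± 0.35 (SE, adjusted p = 9.14e-05). Ntn1, the laminin-related guidance protein, was the one called in WT with WNT3A (2.00 ± 0.40, SE, adjusted p = 0.0349) and was higher in KO titled BMP4+WNT3A (2.38 ± 0.40, SE, adjusted p = 0.00206). Agrn, a proteoglycan of basement membranes, was higher in WT with BMP4 (0.57 ± 0.15, SE, adjusted p = 0.0397) and KO titled WNT3A (0.60 ± 0.15, SE, adjusted p = 0.0154). With BMP4 KO lay below WT in 5 genes of this list and above it in 1, 20% beside 7.28% of all genes, and with time 9 rose and 5 fell, 46.7% beside 38.8%.

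Of 25 proteases and inhibitors Mmp14, a membrane-bound collagenase, was higher in 4 of the 5 cytokine comparisons, namely BMP4 in WT (0.40 ± 0.10, SE, adjusted p = 0.0416), BMP4 in KO (0.50 ± 0.10, SE, adjusted p = 0.0398), KO titled WNT3A (0.83 ± 0.10, SE, adjusted p = 0.000153) and KO titled BMP4+WNT3A (0.80 ± 0.10, SE, adjusted p = 0.000360). Adamts1, which cleaves proteoglycans, was lower in WT with BMP4 (-0.66 ± 0.14, SE, adjusted p = 0.0161) and KO titled WNT3A (-0.64 ± 0.14, SE, adjusted p = 0.00889). No other gene of this list was called for a cytokine, so BMP4 in WT and KO titled WNT3A called 8% of the list each and the other 2 comparisons 4% each. With BMP4 KO lay above WT in Adamts1 (0.61 ± 0.14, SE, adjusted p = 0.0149), 4% of the list beside 7.28% of all genes. With time 11 rose and 4 fell, 60% beside 38.8% of all genes.

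Of 33 integrin adaptors and other matrix receptors, WT with BMP4 called 2 higher, KO with BMP4 1, KO titled WNT3A 3 higher and 1 lower, and KO titled BMP4+WNT3A 2 higher and 1 lower. These are 6.06%, 3.03%, 12.1% and 9.09% of the list, beside 3.47%, 0.573%, 9.56% and 6.83% of all genes. Parvb, which joins integrin-linked kinase to actin, was higher with BMP4 in WT (1.66 ± 0.30, SE, adjusted p = 0.00504), with BMP4 in KO (1.75 ± 0.30, SE, adjusted p = 0.0119) and in KO titled WNT3A (1.12 ± 0.30, SE, adjusted p = 0.0250), but not in KO titled BMP4+WNT3A (-0.66, adjusted p = 0.216). Bcam, a receptor of Lama5 laminins, was higher with BMP4 in WT (0.65 ± 0.14, SE, adjusted p = 0.0146) and in KO titled WNT3A (0.67 ± 0.14, SE, adjusted p = 0.00546). Zyx, a focal adhesion protein, was higher in both KO groups titled with WNT3A, by 0.64 ± 0.18 (SE, adjusted p = 0.0376) and 1.12 ± 0.18 (SE, adjusted p = 0.00184). With BMP4 KO lay below WT in Zyx (-1.08 ± 0.18, SE, adjusted p = 0.00214). It lay above WT in Lims1 (0.50 ± 0.10, SE, adjusted p = 0.00624) and Bcar1 (0.51 ± 0.12, SE, adjusted p = 0.0144). This is 9.09% of the list beside 7.28% of all genes. With time 12 rose and 2 fell, 42.4% beside 38.8% of all genes, and Ilk, Vcl and Fermt2, the integrin-linked kinase, vinculin and kindlin-2 of the adhesion complex, were higher at 36 h by 0.74 ± 0.07 (SE, adjusted p = 5.8e-07), 0.98 ± 0.13 (SE, adjusted p = 3.15e-05) and 0.53 ± 0.09 (SE, adjusted p = 0.000299).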

How the data were processed

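The authors deposited intensity values, linear and with a floor of 1 that holds 2.93% of them; the steps behind them are not stated in the sources used here, and no detection calls were used. RNA had been amplified before labelling, per the labels' protocols. The platform annotation gives 1 gene for 34958 of 45101 probe sets, more than 1 for 932 and none for 9211; a gene was read from the brightest of its own. Genes above the array median on at least 3 arrays were tested, as log2(value + 16) after quantile normalization, with limma 3.58.1 (R 4.3.3; 7 groups, time as an additive block, 21 arrays, 12 residual degrees of freedom, trend). The fit was tested on simulated data. The number of arrays limits precision.

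Members and lists were chosen with earlier results of these data known. Named with values are Dcn, Fn1, Nid1, Nid2 and Sparc, the 10 members of highest mean and those called in any of 9 comparisons. Of the genes passing in other lists only some are named, and Frem2, Fras1 and Lgals1 are among those not described. Other members and genes below the level limit were named after their values were seen. Other settings were scaling, offset, filter, probe sets, trend, array weights, no time block, arrays compared alone, exchanged or omitted KO arrays, omitted times, and omission of the arrays with Gapdh 3' to 5' ratios of 4.03 (WT with WNT3A, 24 h), 2.68 (KO without cytokine, 24 h) and 2.30 (WT without cytokine, 36 h), against 1.09 to 1.71 elsewhere. The slope model and omission of single arrays were added after the data were seen. Promoters are RefSeq's (GRCm38.p6). Figures used matplotlib 3.10.9.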

Additional observations from a re-analysis of the deposited data

How the results depend on the processing

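The direction of each member called held under all other settings run, except that another Sparc probe set reversed its change with time (-0.20). Counts of members called moved by over 1.5 times as follows. BMP4 in WT fell from 2 to 1 with no filter, no trend, no replicate block (time left out), on leaving out the 6 KO arrays whose labels conflict and on leaving out the 3 arrays with most Gapdh 3' bias. KO against WT with BMP4 fell from 2 to 1 with no replicate block, with only the arrays compared, on leaving out those 6 or those 3 arrays. KO titled BMP4+WNT3A went from 3 to 1 with no replicate block and to 7 with array weights. KO titled WNT3A went from 3 to 6 with array weights and to 7 with only the arrays compared, and BMP4 in KO from 1 to 2 and to 3. A level limit of 200 kept 24 members in place of 37.

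Leaving out 1 time or 1 array gave 0 to 3 for BMP4 in WT, 0 to 2 for WNT3A in WT, 0 to 2 for BMP4 in KO, 1 to 4 for KO titled WNT3A, 0 to 5 for KO titled BMP4+WNT3A, 0 to 2 for KO against WT without cytokine, 0 to 3 with BMP4, and 16 to 19 for time. The 2 without cytokine were Dcn and Lama5, called without WT without cytokine at 12 h. The 5 appeared without KO with BMP4 at 36 h. Without the 24 h arrays the only call of a cytokine or of genotype was Dcn in KO titled WNT3A. Exchanging the labels of the 6 KO arrays exchanges the values of both groups: Itga6 then has -0.61 (adjusted p = 0.0694) for WNT3A and Lama5 0.29 (adjusted p = 0.362) for both cytokines. The Id1 signals of 5480 to 9345 in KO titled WNT3A and 186 to 1323 in KO titled BMP4+WNT3A go against the titles. The cause of the other shifts was not tested. There are no detection calls, so signals near or below the array medians, such as most of those of Dcn with a cytokine, may be background. They limit the size of a fold, and the direction of a difference between such dim groups is not secured.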
